A study of Schmidtea mediterranea with 9 samples.

Results

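The transcripts described here are the longest that the planarian stem cell libraries hold as a lone contig: of 46724 components (groups of contigs that an assembly treats as a gene), 39535 have 1 contig, 9316 of these have at least 10 reads in each of the 9 libraries, and the 200 with the greatest contig length were taken, with ties ordered by identifier. The choice used length and a minimum of reads, and no comparison between groups. A further 17 components of 1 contig are as long as the shortest member but fell under 10 reads in a library. The last members inside the length threshold are comp892_c0 (3965 bases) and comp13686_c0 (3961 bases), at mean levels of 187.6 and 1.26 RPKM (a read count divided by contig length and by the scaled library size). The first outside it are comp4530_c0 (3959 bases, 35.2 RPKM) and comp5400_c0 (3949 bases, 6.25 RPKM).

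The animals were asexual Schmidtea mediterranea, planarian flatworms that regrow lost body parts, and had been starved. Live cells with more than a diploid DNA content were sorted from the tissue in front of the pharynx, the feeding organ, by DNA stain and exclusion of a dead-cell dye. There were 3 libraries of animals at 0 h (controls), 3 taken 48 h after the head was cut off (the anterior group) and 3 taken 48 h after the tail and pharynx were cut off (the posterior group). The labels mention no uninjured animals at 48 h, so wounding and elapsed time cannot be told apart, and they do not say whether replicates came from separate animals, so a p-value here reflects library-to-library spread, which may be technical. In bulk RNA, fewer cells of a type and less RNA per cell cannot be told apart.

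Neoblasts are the dividing stem cells of planarians and the source of all new tissue. For sequencing, messenger RNA is commonly captured by its poly(A) tail and then fragmented. A long transcript then gives more reads per molecule than a short one, so levels are compared between transcripts per length. In animals in general, very long messenger RNAs often code for large structural, motor or scaffold proteins. Which proteins these contigs code for is not known here: the files pair no contig with a gene name, no sequence was at hand, and the sorted cells could not be checked against neoblast markers such as smedwi-1. A contig is an assembled length, which may be less than the full transcript.

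Mapped reads ranged from 14674800 (control replicate 1) to 23700877 (control replicate 3) per library, and unmapped reads from 3.96% (posterior replicate 3) to 11.4% (control replicate 1). In replicates of the same group, reads over the members differed by far more than counting noise, with a chi-square per degree of freedom from 13.9 (posterior replicates 1 and 2) to 318.7 (anterior replicates 2 and 3). Without the most-read member, comp2_c0, it ran from 6.37 (anterior replicates 2 and 3) to 55.0 (control replicates 1 and 3), so most of the highest value came from that 1 transcript. Control replicate 1 and posterior replicate 3 stand apart from the other libraries in the results that follow. The values without them that are given below were computed after seeing the data.

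The members run from 3961 to 17576 bases, with a median of 4879.5. Of these, 9 reach 10000 bases, 82 have at least 5000 but fewer than 10000 bases, and 109 are shorter. The median eligible component of 1 contig has 992 bases, and the median contig of all has 375. The longest contig of the whole assembly (19189 bases) is not a member, because its component holds 29 contigs. Among components with a contig at least as long as the shortest member, 313 of 530 have several contigs, so the members are the minority of long transcripts that were assembled in 1 form. The identifiers of 197 members share their comp number with no other component, while comp1338_c0, comp424_c1 and comp605_c1 do, and reads could have been divided between these 3 and their neighbours.

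The longest member, comp545_c0 (17576 bases), was a rare transcript. It stood at 0.505, 0.607 and 0.669 RPKM in control replicates 1 to 3, at 0.499, 0.396 and 0.496 in the anterior group, and at 0.491, 0.338 and 0.213 in the posterior group. Posterior replicate 3 was the lowest, with 65 reads, and all 6 wounded libraries lay below all 3 controls. The second longest, comp2942_c0 (16830 bases), was much more abundant per length, at 12.3, 12.3 and 7.77 RPKM in the controls, 8.30, 10.4 and 11.3 in the anterior group and 10.1, 11.2 and 7.74 in the posterior group. Its lowest libraries were control replicate 3 and posterior replicate 3, and its groups overlapped. The next were comp3197_c0 (16084 bases), between 0.380 and 0.700 RPKM, and comp2237_c0 (14141 bases), between 0.0653 and 0.337 RPKM with 16 to 111 reads. Both were lowest in posterior replicate 3 and highest in control replicate 2. Of the 9 members of 10000 bases or more, 5 had a mean level under 1 RPKM.

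Over all members the mean level ranged from 0.0936 to 599.2 RPKM, with a median of 9.11 and quartiles of 2.87 and 21.9. Eligible components had a median of 9.88 RPKM and quartiles of 3.35 and 32.9. Both tails differed in size: 6 members (3.0%) exceeded 100 RPKM, against 9.27% of eligible components, and 18 members (9.0%) stayed under 1 RPKM, against 2.37%. The minimum of 10 reads bears on this second share, since a long contig passes it at a lower level per length than a short one. Among the members, length and level on log2 scales correlated at r = -0.20 across the 200 transcripts, which share their libraries. The minimum of reads bears on this value too, and length is also the divisor in RPKM, so no conclusion is drawn from it.

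**Figure D1:**
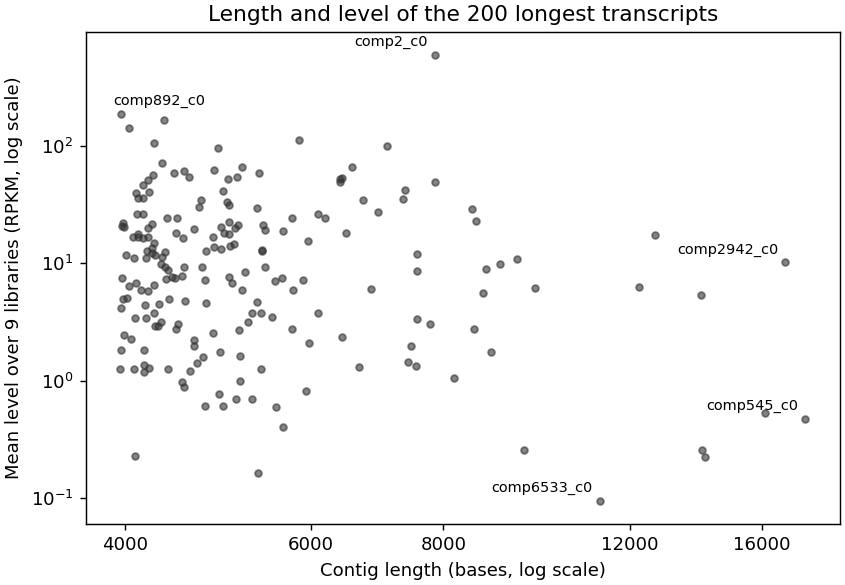
Each point is 1 of the 200 members, by contig length in bases (x axis, log scale) and mean level over the 9 libraries in RPKM (y axis, log scale). Levels range from 0.0936 (comp6533_c0) to 599.2 RPKM (comp2_c0), and the 9 members of 10000 bases or more include 5 under 1 RPKM.

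The most abundant member by far was comp2_c0 (7857 bases). Its level was 398.9, 807.0 and 288.5 RPKM in control replicates 1 to 3, 617.6, 522.3 and 1592.6 in the anterior group, and 295.3, 262.3 and 608.7 in the posterior group. Anterior replicate 3 stood 6.07-fold above the lowest library, posterior replicate 2, and every group overlapped the others. This transcript alone held between 8.90% (posterior replicate 2) and 39.6% (anterior replicate 3) of all reads on the members. After it came comp892_c0 (3965 bases, mean 187.6 RPKM), comp1401_c0 (4353 bases, 165.6 RPKM) and comp1017_c0 (4034 bases, 142.6 RPKM). Their levels were even: the highest library exceeded the lowest by 1.45-fold, 1.56-fold and 1.28-fold, and control replicate 1 was the highest for all 3. At the other end, comp6533_c0 (11248 bases) averaged 0.0936 RPKM on 10 to 52 reads and comp4691_c0 (5344 bases) 0.162 RPKM on 13 to 23 reads. With so few reads counting error enters their spread, and how large a part it has was not tested.

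Together the members took 2.87%, 2.72% and 1.86% of the mapped reads in control replicates 1 to 3. They took 2.13%, 2.28% and 3.05% in the anterior group and 2.27%, 2.62% and 1.83% in the posterior group. The groups overlapped, with means of 2.48 ± 0.54% (SD, n = 3), 2.49 ± 0.49% (SD, n = 3) and 2.24 ± 0.40% (SD, n = 3), and their differences were smaller than the spread within a group. The high value of anterior replicate 3 is that of comp2_c0, which took 1.21% of its mapped reads. Without comp2_c0 the anterior libraries stood at 1.66%, 1.90% and 1.84%, the controls at 2.55%, 2.08% and 1.64% and the posterior libraries at 2.03%, 2.39% and 1.41%. Control replicate 1 was then the highest library and posterior replicate 3 the lowest.

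The members moved together from library to library. For each transcript the log2 level in a library was set against its own mean over the 9 libraries, after scaling by trimmed mean of M values (TMM). The median of these deviations was 0.35, 0.19 and -0.19 in control replicates 1 to 3. It was -0.13, 0.06 and -0.04 in the anterior group, and 0.01, 0.17 and -0.34 in the posterior group. Control replicate 1 was thus high and posterior replicate 3 low, and the controls alone covered most of the range. The group means of these medians were 0.12 ± 0.28 (SD, n = 3) for the controls, -0.03 ± 0.09 (SD, n = 3) in the anterior group and -0.05 ± 0.26 (SD, n = 3) in the posterior group, closer together than the replicates of the controls or of the posterior wound.

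Counts of single members show the same order. Control replicate 1 was the highest of the 9 libraries at 120 of the 200 members, whereas 25.4% of all 21322 components tested were highest there. Posterior replicate 3 was the lowest library at 129 members, against 23.8% of all components tested. Within the posterior group, replicate 2 exceeded replicate 3 at 188 members, with a median difference of 0.54 on the log2 scale, where 52.0% of all components did, with a median difference of 0.03. Within the controls, replicate 1 exceeded replicate 3 at 173 members, with a median difference of 0.58, where 49.97% of all components did. Anterior libraries lay between these ends: anterior replicate 1 was the lowest library at 20 members and the highest at 0.

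**Figure D2:**
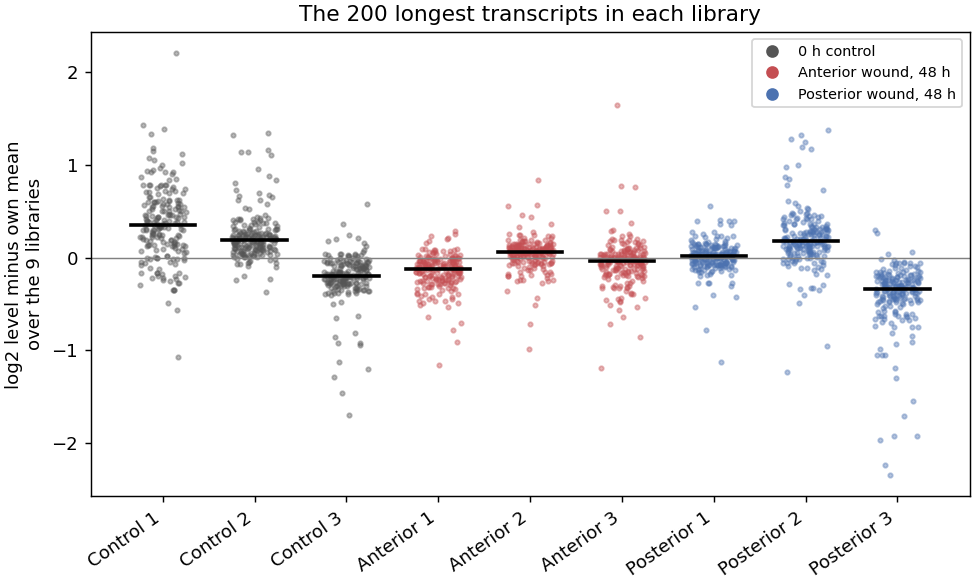
For each library (x axis), the log2 level of each of the 200 members minus its own mean over the 9 libraries (y axis, log2 units), with a bar at the median and colours for the 3 groups. The medians run from 0.35 in control replicate 1 to -0.34 in posterior replicate 3, and libraries of the same group differ more than the groups do.

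The extreme libraries were the same under 3 other scalings. With scaling by library totals, by median-of-ratios size factors and by the upper quartile, the members' median was 0.41, 0.34 and 0.46 in control replicate 1 and -0.49, -0.30 and -0.43 in posterior replicate 3, while all components tested had medians between -0.15 and 0.20 in the 9 libraries. Anterior replicate 2 changed sign with scaling by library totals (-0.02), and so did posterior replicate 1 with the upper quartile (-0.0005). With library totals posterior replicates 1 and 2 stood higher than with TMM, at 0.10 and 0.36. The share of unmapped reads moved with this pattern in part. Control replicate 1 (11.4%), posterior replicate 2 (5.46%) and control replicate 2 (5.35%) had the largest shares and the highest members. Posterior replicate 3 (3.96%) had the smallest share and the lowest members. Anterior replicate 2 departed from this, at rank 8 of 9 by share (4.27%) but rank 4 by the members' median (0.06). Control replicate 3 was at rank 6 by share and rank 8 by median. The part of unmapped reads in the pattern was not tested.

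The library pattern followed contig length beyond the threshold that defines the members. In the 50 longest transcripts (5838 to 17576 bases) the library medians spanned 0.82 on the log2 scale, from 0.43 in control replicate 1 to -0.38 in posterior replicate 3. This span was 0.69 in the next 50 members, 0.63 in the last 100 members and 0.45 among the 200 components that follow them in length (3276 to 3959 bases). It was smallest, at 0.13, in the class from 1337 to 1927 bases. The order of the extreme libraries had turned round in that class, with control replicate 1 at 0.03 and posterior replicate 3 at 0.09, and stood further apart in shorter ones: in the shortest class, up to 679 bases, control replicate 1 stood at -0.13 and posterior replicate 3 at 0.26. Scaled levels are relative to the rest of a library, so high levels in long transcripts and low levels in short ones are not independent results. Why the order turned round was not tested.

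**Figure D3:**
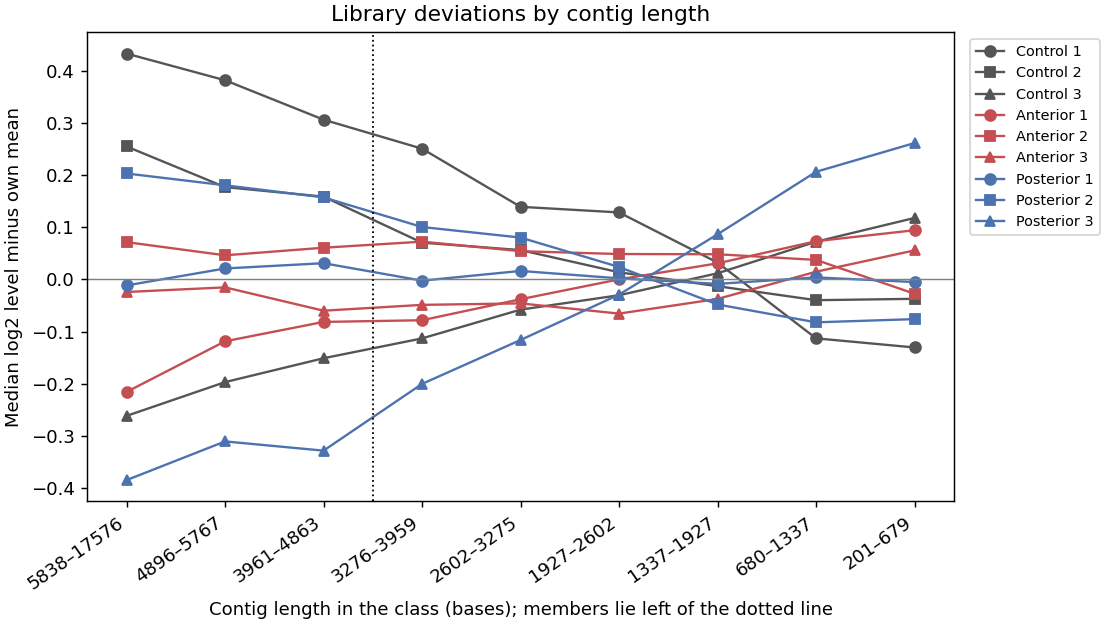
Median log2 level minus own mean (y axis) for each library (lines; colour gives the group, marker the replicate) in 9 classes of eligible components by contig length in bases (x axis, longest at the left). Control replicate 1 falls from 0.43 to -0.13 and posterior replicate 3 rises from -0.38 to 0.26 between the longest and the shortest class.

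The extreme libraries were the same in long transcripts that the selection did not use, although some neighbours in between changed places. The 313 components of several contigs with a contig of at least 3961 bases had medians of 0.27, 0.17 and -0.19 in control replicates 1 to 3, -0.14, 0.06 and 0.01 in the anterior group, and -0.00, 0.20 and -0.32 in the posterior group. Reads of such components are shared among contigs, so their length is that of the longest contig only. Abundant and rare members shared the pattern: in the more abundant 100 members control replicate 1 stood at 0.31 and posterior replicate 3 at -0.29, and in the less abundant 100 at 0.39 and -0.41.

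Each member's own profile over the 9 libraries correlated with the median profile at a median r of 0.84, as a description over libraries that all members share. The correlation exceeded 0.8 at 118 members and 0.5 at 170, and was below 0 at 8. Pairs of members correlated at a median r of 0.66, and 91.0% of the 19900 pairs were above 0, while the median among the 200 components next in length was 0.44. After removal of the group means the pairwise median was 0.72, so the members also moved together within the groups. Without control replicate 1 and posterior replicate 3, over the other 7 libraries, the median r with the median profile was 0.80 and that between pairs 0.58.

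A few members followed the shared profile far more steeply than the rest, and these are the most variable. The pooled within-group SD of the log2 level was 0.28 at the median member (quartiles 0.21 and 0.36), 0.36 over all components tested, 0.27 over eligible components and 0.22 for the 200 next in length. It exceeded 1 at 7 members. Without control replicate 1 and posterior replicate 3 the median member had an SD of 0.19, and 3 members exceeded 1. Posterior replicate 3 had the library median furthest from its group's mean (-0.34 against -0.05), so leaving it out tends by construction to lower the SD. Among the controls the furthest was replicate 3 (-0.19 against a mean of 0.12), not the omitted replicate 1 (0.35). The largest was that of comp9928_c0 (6413 bases, SD 1.48), which stood at 4.65, 4.32 and 0.612 RPKM in control replicates 1 to 3, at 0.763, 2.04 and 2.43 in the anterior group, and at 1.98, 3.87 and 0.351 in the posterior group. Control replicates 1 and 2 and posterior replicate 2 were high and control replicate 3, anterior replicate 1 and posterior replicate 3 low, a span of 13.3-fold. The next, comp9484_c0 (4266 bases, SD 1.42), stood at 7.48, 6.30 and 1.15 RPKM in the controls, 1.5, 3.30 and 3.36 in the anterior group and 3.78, 6.53 and 0.541 in the posterior group, a span of 13.8-fold with the same libraries at its ends. Chosen after their values were seen, comp5737_c0 (6659 bases), comp7497_c0 (4770 bases), comp5466_c0 (4767 bases) and comp2140_c0 (5199 bases) were all lowest in posterior replicate 3 too, with spans of 10.1, 7.75, 7.24 and 8.58-fold. The seventh, comp7686_c0, had another pattern and is described with the wounds.

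Others held steady. The smallest within-group SD was that of comp2337_c0 (5111 bases, SD 0.064), at 52.0, 55.0 and 56.8 RPKM in the controls, 52.2, 54.2 and 57.0 in the anterior group and 50.5, 51.5 and 55.1 in the posterior group. Its highest library exceeded its lowest by 1.13-fold, and it was one of the members whose profile ran against the median profile (r = -0.44 over 9 libraries). The second steadiest, comp5672_c0 (4390 bases, SD 0.068), lay between 22.7 and 25.9 RPKM in all libraries. The profile most opposed to the median one, chosen after its values were seen, was that of comp1994_c0 (4016 bases, r = -0.61), lowest in control replicate 1 at 8.16 RPKM and highest in posterior replicate 1 at 13.5 RPKM. The highest library exceeded the lowest by 1.81-fold at the median member, on log2 levels with a prior count, and by more than 2-fold at 72 members.

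**Figure D4:**
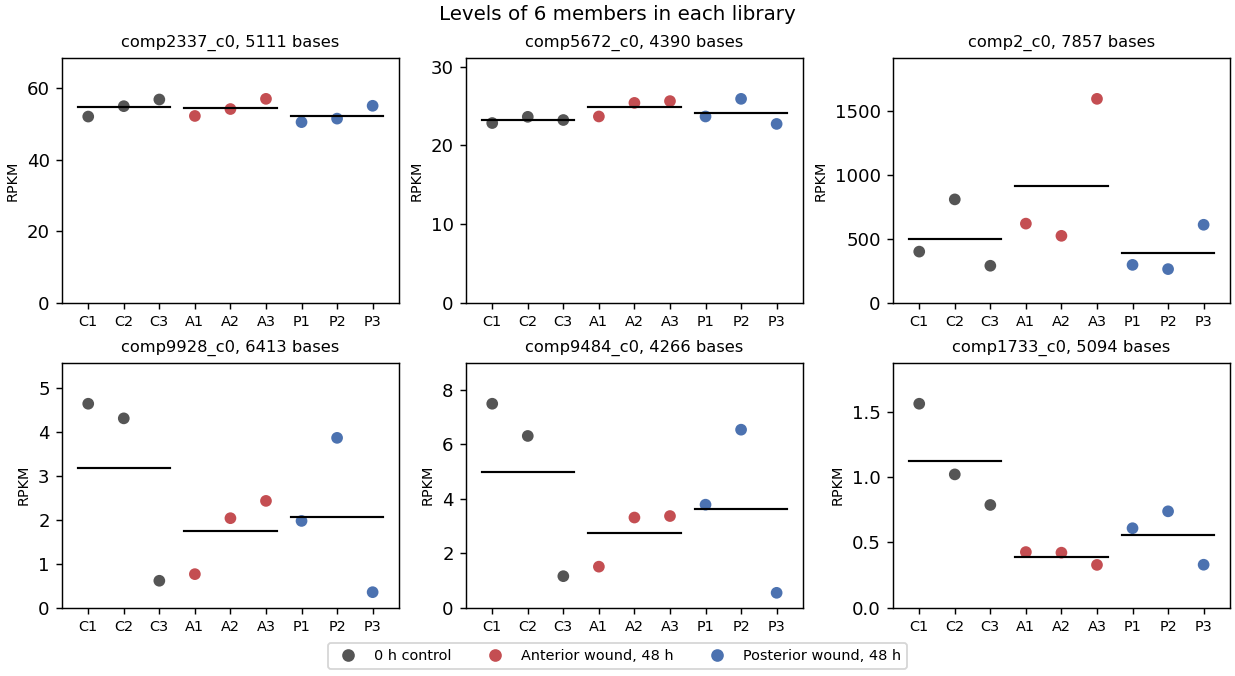
Level in RPKM (y axis, from 0) of 6 members in each library (x axis; C control, A anterior wound, P posterior wound, with the replicate number), with a bar at each group mean. comp2337_c0 and comp5672_c0 are the steadiest members, comp2_c0 the most abundant, comp9928_c0 and comp9484_c0 the most variable, and comp1733_c0 is lower in all wounded libraries than in the controls.

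The wounds were compared with the controls, and with each other, to ask whether neoblasts in the same region change their long transcripts after a loss of the head or of the tail. By the quasi-likelihood test of edgeR, adjusted after Benjamini-Hochberg across 21322 components, 0 members were called in each of the 3 comparisons. The share called among all components was 0.0281% in the anterior comparison, 0.0281% in the posterior one and 0% between the wounds, and limma-voom called the same shares and 0 members. All 200 members entered the test, and their median standard error of a log2 fold change was 0.20, against 0.33 over all components.

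After the anterior wound the members' median log2 fold change was -0.17 (quartiles -0.38 and -0.04), where the median over all components was -0.03 and that of the 200 next in length -0.12. Lower than in the controls were 164 members (82.0%), against 54% of all components, and higher were 36 (18.0%), against 46%. The lower members numbered 128 without control replicate 1 (54% of all components) and 174 without control replicate 3 (52.4%). By edgeR 15 members (7.5%) had an unadjusted p under 0.05, against 3.84% of all components. All 15 were lower and 0 higher, where 2.66% and 1.18% of all components were. Single libraries moved this count: it was 6 without control replicate 1 (2.36% of all components), 60 without control replicate 3 (12.3%), 8 without anterior replicate 1 (3.3%) and 7 without anterior replicate 3 (2.34%). By limma-voom 10 members had such a p (3.49% of all components), and by DESeq2 15 (3.56%). All 3 anterior libraries lay below all 3 controls at 15 members (7.5%), against 5.64% of all components, and above them at 5 (2.5%), against 5.28%. Without control replicate 1 the median was -0.06, and without control replicate 3 it was -0.30, with 0 members called where 0.0176% of all components were.

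The lowest anterior fold change among members with groups apart was that of comp1733_c0 (5094 bases). It stood at 1.56, 1.02 and 0.787 RPKM in the controls and at 0.426, 0.421 and 0.327 in the anterior group, on 30 to 122 reads. All anterior libraries were below all controls, and the fold change was -1.51 on the log2 scale (SE 0.35, adjusted p = 0.964 by edgeR). DESeq2 called it, with a log2 fold change of -1.51 and an adjusted p of 0.0341, where DESeq2 called 0.113% of all components. After the posterior wound it stood at 0.609, 0.738 and 0.328 RPKM, again below all controls, with a posterior log2 fold change of -0.997 (SE 0.34, adjusted p = 0.780 by edgeR). Without control replicate 1 and posterior replicate 3 the posterior value was -0.41.

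The other member named by the same rule, comp10087_c0 (5138 bases), was lower in the anterior group than in either other group. Its levels were 1.78, 0.946 and 0.981 RPKM in the controls, 0.618, 0.428 and 0.368 in the anterior group and 1.013, 2.13 and 0.752 in the posterior group. The anterior libraries lay below all others, while controls and posterior libraries overlapped. On the log2 scale its fold change was -1.38 (SE 0.42, adjusted p = 0.964 by edgeR) against the controls and -1.46 (SE 0.42, adjusted p = 1.0 by edgeR) against the posterior wound. Without posterior replicate 2, its highest library, the second value was -0.92. In no comparison was it called.

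After the posterior wound the members' median log2 fold change was again -0.17 (quartiles -0.32 and -0.03), with -0.03 over all components and -0.12 for the 200 next in length. The controls are the same libraries as in the anterior comparison. Lower were 162 members (81.0%), against 53.5% of all components, and higher were 38 (19.0%), against 46.5%. By edgeR 20 members (10.0%) had an unadjusted p under 0.05, against 5.96% of all components. Of these, 18 (9.0%) were lower and 2 (1.0%) higher, against 3.32% and 2.64% of all components. This count too moved with single libraries, to 7 without control replicate 1 (4.05% of all components), 13 without control replicate 2 (4.44%), 59 without control replicate 3 (16.2%) and 12 without posterior replicate 3 (7.32%). It was 10 (3.57%) when only the 6 libraries compared were fitted. By limma-voom 14 members had such a p (7.26% of all components), and by DESeq2 20 (5.8%). The posterior libraries lay below all controls at 10 members (5.0%) and above them at 1 (0.5%), against 5.7% and 4.36%. The median was -0.046 without control replicate 1 and -0.032 without posterior replicate 3, -0.31 without control replicate 3 and -0.30 without posterior replicate 2. With control replicate 1 and posterior replicate 3 both left out, a choice made after seeing the data, it turned to 0.094. Then 58 members were lower (47.6% of all components). Those libraries are the highest control and the lowest posterior library for the members, so leaving both out raises the median by construction. No conclusion on its direction is drawn from this turn, and either removal alone left the median negative.

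The 1 member above all controls in the posterior group was comp8944_c0 (5339 bases). It stood at 3.02, 3.44 and 3.69 RPKM in the controls, at 4.02, 4.88 and 4.22 in the anterior group and at 6.58, 8.06 and 4.19 in the posterior group. Every wounded library exceeded every control, although posterior replicate 3 lay among the anterior libraries. Its posterior log2 fold change was 0.89 (SE 0.22, adjusted p = 0.426 by edgeR), and its anterior one 0.37 (SE 0.22, adjusted p = 0.964 by edgeR). DESeq2 called the posterior difference (log2 fold change 0.89, adjusted p = 0.0392), where DESeq2 called 0.352% of all components. Unlike most members it did not follow the shared library profile (r = -0.00 over 9 libraries).

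The longest member, comp545_c0, whose levels are given above, had a posterior log2 fold change of -0.77 (SE 0.28, adjusted p = 0.780 by edgeR). Without control replicate 3 edgeR called 2 members lower in the posterior group, where 1.29% of all components were called. They were comp7686_c0 (log2 fold change -2.51, adjusted p = 0.0402) and comp6600_c0 (-0.83, adjusted p = 0.0385), both named after their values were seen. At comp6600_c0 (4859 bases) the controls stood at 22.7, 15.7 and 13.6 RPKM, the anterior libraries at 11.8, 13.2 and 13.7 and the posterior libraries at 10.7, 10.8 and 10.5. The posterior libraries were closely alike and below all others.

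Between the wounds the members' median log2 fold change (anterior minus posterior) was -0.00, as over all components (-0.00), with 97 members above 0 (48.5%) and 103 below (51.5%), against 49.3% and 50.7% of all components. It was -0.12 without posterior replicate 3, with 156 members below 0 (53.9% of all components), and 0.090 without posterior replicate 2, with 47 below 0 (51%). With control replicate 1 and posterior replicate 3 both left out it was -0.14, with 168 members below 0 (55.5% of all components). By edgeR 5 members (2.5%) had an unadjusted p under 0.05, against 2.72% of all components, with 2 higher and 3 lower in the anterior group (1.0% and 1.5%), against 0.868% and 1.86% of all components. The edgeR count was 1 without anterior replicate 3 (2.04% of all components), 3 without posterior replicate 1 (1.82%), 2 without posterior replicate 2 (2.33%) and 10 without posterior replicate 3 (6.45%). With control replicate 1 and posterior replicate 3 both left out it was 31, against 11.3% of all components, with 0 called. Such a p was found at 3 members by limma-voom (2.72% of all components) and at 4 by DESeq2 (2.37%), and 0 members were called by DESeq2, where 0.0657% of all components were. The groups lay apart at 3 members with the anterior wound higher and at 1 with it lower (1.5% and 0.5%), against 3.67% and 5.95% of all components. The member that was higher by the naming rule was comp7686_c0 (4398 bases), at 1.07, 1.63 and 1.55 RPKM in the anterior group and 0.403, 0.371 and 0.577 in the posterior group. Its controls, at 4.26, 0.978 and 0.402 RPKM, spanned more than both wounded groups, and its log2 fold change between the wounds was 1.65 (SE 0.68, adjusted p = 1.0 by edgeR).

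**Figure D5:**
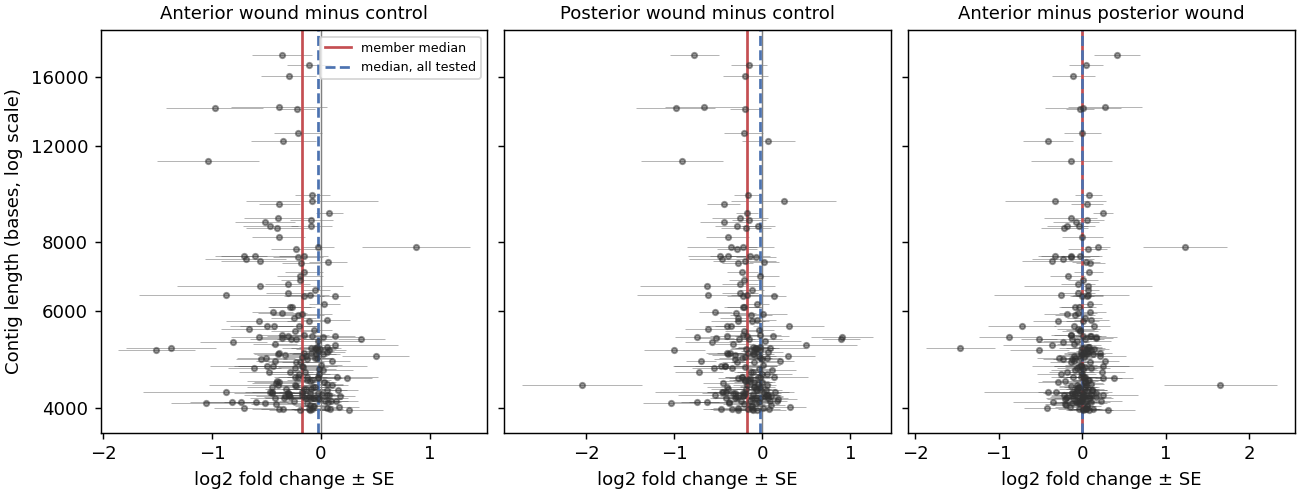
log2 fold change of each of the 200 members with its standard error (x axis) by contig length in bases (y axis, log scale) in the 3 comparisons; the solid line marks the members' median and the dashed line the median over all components tested. Against the controls the members' median is -0.17 after either wound, where that of all components is -0.03, and between the wounds both are near 0 with all 9 libraries.

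The authors' deposited table of DESeq results lists all 200 members and calls 0 of them after either wound, where 0.0199% and 0.0506% of all components with a value there were called. The lowest adjusted p of a member in the authors' deposited table was 1.0 in the anterior group and 0.861 in the posterior group. In the authors' deposited table the fold was below 1 at 158 members in the anterior group and at 166 in the posterior group. For single members, log2 folds in the authors' deposited table differed from those of edgeR by at most 0.046 in the anterior group and 0.034 in the posterior group, from the same libraries.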

How the data were processed

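RNA was extracted with TRIzol and made into Illumina libraries, per the labels' protocols. Tools in the submitters' processing notes are Bowtie2 2.0 and, without a version, SAMtools and DESeq. Unmapped reads and rows that name no contig stayed out of the tests. The assembly and the counting settings are not given in the sources used here. The authors deposited a count of reads per contig for each library, with the contig length in bases (the other quantity per contig) and unmapped reads. For each wound a table from DESeq was also deposited, with a ratio (fold) and an adjusted p-value per component, per the file headers. Columns of per-library values without a sample numbered 0.

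Counts were summed per component. edgeR 4.0.16 in R 4.3.3 tested them with TMM scaling, filterByExpr (minimum count 10; 21322 components left), 1 quasi-likelihood fit of 3 groups over 9 libraries, and calls at a Benjamini-Hochberg adjusted p of 0.05. To get a standard error, the log2 fold change was divided by the root of its F statistic. RPKM are CPM on TMM-scaled library sizes, per kilobase of contig; log2 levels used a prior count of 2. The script was tested on simulated data in which components varied independently of each other, unlike the members here.

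The members and tests were chosen with earlier results of these data known. Members named are the 4 longest, the 4 highest and 2 lowest by RPKM, the 2 steadiest and 2 most variable within groups, up to 2 higher and 2 lower per comparison (unadjusted p under 0.05, groups apart), and 2 on each side of the length threshold; others are said to be chosen after their values were seen. Alternatives were DESeq2 1.42.0, limma-voom (limma 3.58.1), other scalings, filters and numbers of members, a replicate block, fits of 6 libraries, and each library left out. Added after seeing the data were a newer quasi-likelihood method of edgeR, the joint removal of control replicate 1 and posterior replicate 3, and the share of reads and replicate noise without comp2_c0.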

Additional observations from a re-analysis of the deposited data

How the results depend on the processing

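The count of members called was 0 in each comparison and was above 0 under 2 alternatives: DESeq2 called 1 for the anterior and 1 for the posterior comparison, and leaving out control replicate 3 gave 2 for the posterior one. Leaving out each library in turn gave 0 for the anterior comparison, 0 to 2 for the posterior one and 0 between the wounds. The members' median log2 fold change then ranged from -0.30 to -0.060, from -0.31 to -0.032 and from -0.12 to 0.090. With control replicate 1 and posterior replicate 3 both left out, a setting added after seeing the data, the posterior median was 0.094. That between the wounds was -0.14. Those libraries had been picked as the extreme ones, which by itself moves both medians in these directions. Any other cause was not tested. No other alternative changed the sign of either median against the controls. The replicate block left 0 members called and medians of -0.14, -0.17 and 0.018. Correlations between libraries cannot decide whether the replicate numbers pair them. A correlation above 0.1 was seen in 3 of the 9 pairs that share a number, and 4 of 9 libraries were closest to one of their own number. The same-number correlations ran from -0.24 to 0.45, the latter between control replicate 3 and posterior replicate 3. The share of mapped reads was 1.57%, 1.68% and 1.37% (control, anterior, posterior means) for the 100 longest, 4.31%, 4.10% and 3.94% for the 400 longest, as the number of members requires, and 1.80% for the anterior wound without comp2_c0, a setting added after seeing the data. With few reads, 20 members under 50 reads in a library are measured least well. DESeq2's calls of comp1733_c0 and comp8944_c0 were its own alone; over the alternatives their adjusted p ranged from 0.0341 to 1.0 and from 0.0392 to 0.977.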
